A study of Caenorhabditis elegans with 2 samples.

Results

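In whole Caenorhabditis elegans larvae, 230 reproducibly bound autosomal promoter regions had no CACGTG close to their summit, the base of highest signal. CACGTG is the palindromic hexamer known as the canonical E-box. Regions were taken from the 1015 reproducible regions of a chromatin immunoprecipitation experiment with sequencing (ChIP-seq), given in build ce11. A region was counted when it lay off chromosome X and its summit fell in a promoter window, no further than 1000 bp upstream or 200 bp downstream of the 5′ end of a protein-coding gene. No CACGTG could lie within 100 bp of the summit. Of 744 autosomal regions, 317 had a summit in such a window. The 230 without the hexamer were 72.6% of those and 22.7% of the whole list, and the other 87 carried it.

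The material was 2 biological replicates of 1 kind of sample, L3 larvae of both sexes from strain OP355. These animals carry the integrated transgene wgIs355, which supplies a GFP-tagged protein, in an unc-119(tm4063) mutant background, and there was no untagged or untreated group. The labels disagree on the protein. The antibody field and the source name of both samples, which describes strain OP355, have mdl-1, a gene of the Mad family. The free text has ZK337.2, a zinc finger gene also called klu-1. The protein is called the tagged factor here. The labels do not name the promoter that drives the transgene, and bound cells of different tissues cannot be told apart in whole larvae. Regions are not replicates of a condition, so each interval and test over regions below describes this pair of libraries and covers counting error only.

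Proteins of the Myc, Max and Mad network bind DNA as pairs through a basic helix-loop-helix domain, and the E-box is their best known site. In mammals Myc drives genes for ribosomes, translation and metabolism, and Mad proteins oppose it at shared sites. Worm genes often sit close together, and neighbours that point away from each other can share a single stretch of promoter DNA. Many worm messages are trans-spliced, so an annotated 5′ end can lie some way from the place where transcription starts.

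The sequences at the summits carried a few recurring elements, shown first because the counts below refer to them. GAGAGA is a short purine repeat, CTGCGTC a 7-base element with no factor assigned here, and CACGCG and CACGAG each differ from the canonical E-box at a single base. All were searched on both strands. The stretches below are RefSeq sequence of WBcel235 (ce11) within 100 bp of the summit, cut short where an annotated exon begins, read 5′ to 3′ on the strand of the nearest gene. Capitals mark GAGAGA and CTGCGTC as well as CACGCG and CACGAG on either strand. The set runs from windows dense in these elements to windows with few or none, and C18F10.7 and Y54G11A.2 were chosen after their matches were seen.
C09E9.1, chrIV:1274665-1274865, plus strand: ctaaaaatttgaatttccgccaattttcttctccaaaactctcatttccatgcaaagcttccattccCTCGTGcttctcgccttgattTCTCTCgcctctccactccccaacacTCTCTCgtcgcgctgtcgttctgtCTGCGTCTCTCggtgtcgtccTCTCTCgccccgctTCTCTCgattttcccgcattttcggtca
C18F10.7, chrIII:6278531-6278731, minus strand: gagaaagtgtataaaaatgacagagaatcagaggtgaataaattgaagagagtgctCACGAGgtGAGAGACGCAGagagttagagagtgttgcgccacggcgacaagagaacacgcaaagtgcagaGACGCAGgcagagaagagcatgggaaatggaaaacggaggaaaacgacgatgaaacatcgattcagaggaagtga
Y54G11A.2, chrII:14251451-14251633, plus strand: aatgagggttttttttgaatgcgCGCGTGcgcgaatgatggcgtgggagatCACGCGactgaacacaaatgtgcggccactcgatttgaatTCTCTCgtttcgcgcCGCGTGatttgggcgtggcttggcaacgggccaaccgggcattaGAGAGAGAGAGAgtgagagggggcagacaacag
cbp-1, chrIII:9765563-9765763, plus strand: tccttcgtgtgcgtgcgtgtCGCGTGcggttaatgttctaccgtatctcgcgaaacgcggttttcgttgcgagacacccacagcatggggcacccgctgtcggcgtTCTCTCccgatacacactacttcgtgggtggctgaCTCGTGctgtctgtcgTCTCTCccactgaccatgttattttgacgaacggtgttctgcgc
lin-23, chrII:6370251-6370451, plus strand: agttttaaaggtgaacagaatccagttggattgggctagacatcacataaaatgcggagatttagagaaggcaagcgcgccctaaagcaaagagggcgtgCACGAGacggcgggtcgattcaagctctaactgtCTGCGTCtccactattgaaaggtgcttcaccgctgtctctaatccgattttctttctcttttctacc
asd-1, chrIII:4196688-4196888, plus strand: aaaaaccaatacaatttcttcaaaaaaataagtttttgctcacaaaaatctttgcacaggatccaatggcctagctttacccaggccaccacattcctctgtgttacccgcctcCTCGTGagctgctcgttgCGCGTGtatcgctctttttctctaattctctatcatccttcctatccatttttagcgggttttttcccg
tasp-1, chrIII:10759177-10759306, plus strand: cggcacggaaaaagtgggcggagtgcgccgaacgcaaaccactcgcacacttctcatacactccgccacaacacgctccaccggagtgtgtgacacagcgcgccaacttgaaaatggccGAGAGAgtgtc
iff-2, chrII:8561368-8561493, minus strand: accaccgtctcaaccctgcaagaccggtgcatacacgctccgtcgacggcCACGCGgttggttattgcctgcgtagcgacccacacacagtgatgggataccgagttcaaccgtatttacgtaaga
rpl-15, chrIV:654825-655025, minus strand: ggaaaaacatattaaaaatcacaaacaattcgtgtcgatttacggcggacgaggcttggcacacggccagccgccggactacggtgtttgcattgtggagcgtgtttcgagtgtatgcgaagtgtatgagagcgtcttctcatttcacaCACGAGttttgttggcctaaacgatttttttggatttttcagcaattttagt
cdc-48.1, chrII:10563470-10563670, minus strand: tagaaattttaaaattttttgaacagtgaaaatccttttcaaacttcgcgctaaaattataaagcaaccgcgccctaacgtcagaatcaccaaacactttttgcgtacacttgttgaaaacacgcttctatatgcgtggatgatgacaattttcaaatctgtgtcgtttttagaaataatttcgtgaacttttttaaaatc
In C09E9.1 the GA repeat was found 5 times, beside 1 CTGCGTC and 1 CACGAG. Its CTGCGTC overlaps a copy of the repeat read on the other strand. In C18F10.7 there were 2 copies of CTGCGTC, and in Y54G11A.2 there were 3 of CACGCG. The window of rpl-15 holds 1 of these elements, a CACGAG, and also contains tacggt, in lower case above. In the window of cdc-48.1 none of the 4 elements was found.

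Signal at the 230 regions ran from 25.9 to 224 with a median of 38.1, and the middle 50% lay between 30.1 and 52.3. The signal value is the authors' own score for a region in the pooled list, with no scale stated, so it serves only to rank regions. The promoter regions with CACGTG had a median of 44.3, the 292 autosomal regions outside promoters without CACGTG one of 37.4, and the whole list one of 39.4. Among the 507 highest regions of the list were 103 of the 230 (44.8%, exact 95% interval 38.2 to 51.5), against 51 of the 87 with CACGTG (58.6%, 47.6 to 69.1). The share was lower without CACGTG in the raw test but did not pass after correction (2-sided Fisher's exact test, p = 0.0324, Benjamini-Hochberg adjusted p = 0.162 over 5 tests of shares). It did pass with promoter windows of 500 bp or 2000 bp upstream, where the adjusted p was 0.0203 and 0.0344. Against the regions outside promoters, of which 128 (43.8%) were among the 507 highest, the adjusted p was 0.859, and the direction turned with promoters of 500 bp (39.0% against 46.96%) or 2000 bp (43.8% against 44.9%).

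Both replicates listed most of the regions, and more of them were high in the list of replicate 2. Among its 1015 highest regions, replicate 2 had 192 of the 230 (83.5%, 78.0 to 88.0) and replicate 1 had 142 (61.7%, 55.1 to 68.0). A region counted as listed when a region of the replicate held its summit. By this rule replicate 1 did not list 29 of the 230 (12.6%, 8.61 to 17.6), whereas each of the 230 was in the list of replicate 2. Over the whole list of 1015 the same shares were 86.01%, 64.04% and, for regions that replicate 1 did not list, 9.66%. The list of replicate 1 had 15898 regions and that of replicate 2 had 30000. In both sets of 1015 at once (Fisher's exact test) were 117 of the 230 (50.9%), 54 of the 87 with CACGTG (62.1%, adjusted p = 0.176) and 141 of the 292 outside promoters (48.3%, adjusted p = 0.746), and 54.2% of the whole list. Where listed, the median rank was 580 in replicate 1, with a range of 13 to 14361, and 586 in replicate 2, with a range of 12 to 6204.

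**Figure D1:**
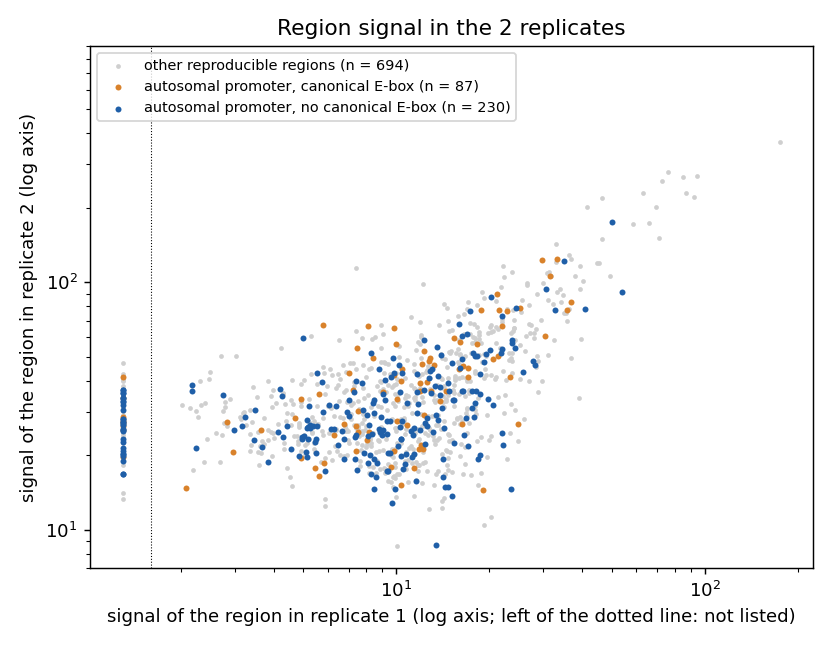
Signal of each reproducible region in replicate 1 (x axis) and replicate 2 (y axis), both on log axes, with the authors' score as the unit. The 230 promoter regions without the canonical E-box (blue) lie in the same range as the 87 with it (orange), and the column at the left edge shows regions that replicate 1 did not list, 29 of them blue.

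The 20 highest of the 230 lay at genes of varied roles. Rank 14 of the whole list (chrIII:10759107-10759398, signal 224) had its summit 30 bp upstream of tasp-1, which encodes a threonine aspartase homologue. It ranked 14 in replicate 1, with a signal of 49.97, and 12 in replicate 2, with 174. A region 103 bp upstream of C09E9.1 (chrIV:1274649-1274876, signal 146) ranked 13 in replicate 1 and 49 in replicate 2. The summit upstream of cdc-48.1 (chrII:10563495-10563673, signal 117), the gene for the segregase known as p97 in mammals, ranked 45 and 77. For cbp-1, the CBP/p300 histone acetyltransferase, a region 846 bp upstream (chrIII:9765588-9765822, signal 103) ranked 148 and 53. All of these were among the 150 highest regions of each replicate.

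The same top 20 held genes of several further roles. Autophagy was represented by lgg-2, an LC3 homologue, with a signal of 92.7 and ranks of 214 and 79 in replicates 1 and 2. RNA control was represented by ntl-2, a subunit of the CCR4-NOT deadenylase, with a signal of 80.2, and by asd-1, an RBFOX family splicing factor, with 75.9. Neuronal transport and signalling were represented by unc-16, a JIP3-type kinesin adaptor, with 79.3, and by rsbp-1, which binds regulators of G protein signalling, with 82.5. The F-box protein gene lin-23, with 75.9, had its summit 952 bp upstream, near the far edge of the window. The list also held rpl-15, rpl-3, iff-2, rps-12, ceh-38 and enpl-1, described with their groups below, and tag-340, W06H8.6, Y39A1A.9 and F02E9.5, for which no role is given here. Their signals ran from 70.8 for F02E9.5 to 154 for tag-340.

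Summits lay mostly close upstream of genes, as they did in promoter regions with CACGTG. The median was 249 bp upstream, and the furthest were 991 bp upstream and 196 bp downstream. There were 81 summits up to 200 bp upstream (35.2%), 78 beyond that up to 500 bp (33.9%), 53 further up to 1000 bp (23.04%) and 18 at 0 to 200 bp downstream (7.83%). With CACGTG the median was 206 bp upstream, and the shares were 36.8%, 28.7%, 22.99% and 11.5% in the same order. No test of position was run. By annotation, 165 summits were intergenic (71.7%), 22 lay in an exon of a protein-coding gene, 15 in an intron of one, and 28 in a noncoding RNA gene. Within 200 bp of the summit there was a gene of the annotation's class ncRNA for 44 of the 230 (19.1%), against 8 of the 87 with CACGTG (9.20%) and 54 of the 292 outside promoters (18.5%). Small nuclear and small nucleolar RNA genes lay that close to 5 regions each.

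**Figure D2:**
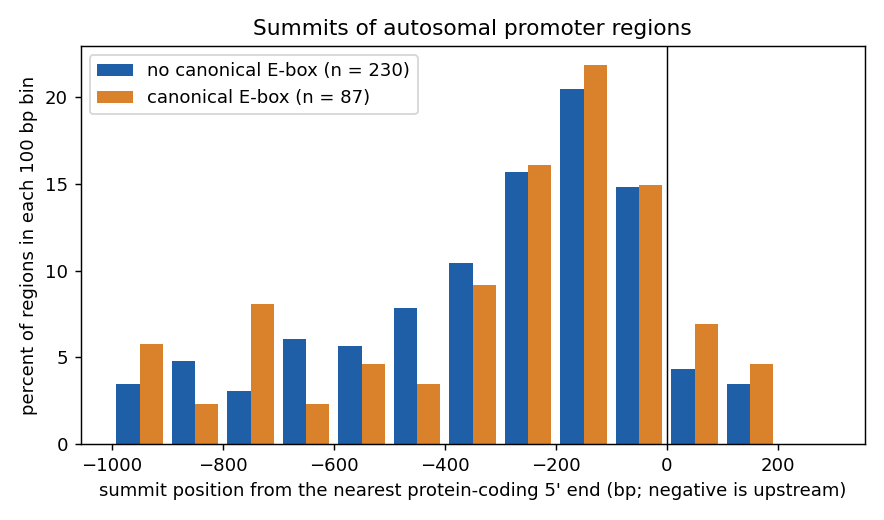
Position of summits relative to the nearest protein-coding 5′ end, in bins of 100 bp (x axis, bp), as a percent of the regions (y axis), for the 230 without (blue) and the 87 with the canonical E-box (orange). Both sets are highest between 100 and 200 bp upstream, with 20.4% and 21.8% of regions in that bin.

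The regions were spread over all autosomes and were densest per gene on chromosome III. There were 56 on III, 51 on I, 43 on V, 42 on II and 38 on IV. Per 1000 protein-coding genes this is 21.2 on III, 17.7 on I, 12.2 on II, 11.6 on IV and 8.61 on V, against 13.3 over all autosomes. In all, 293 of 17242 autosomal protein-coding genes had a summit in their window, which is 1.70%. Of the 230 summits, 165 lay in the window of 1 gene, 64 in the windows of 2 genes and 1 in those of 3 genes. Just 3 genes had 2 of these regions, and 3 genes also had a promoter region with CACGTG, of 104 genes with such a region.

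Ribosomal protein genes gave the highest count of any list, at a share well above the background of 1.70% of genes. Of 79 genes for cytosolic ribosomal proteins, 14 had a region (17.7%, exact 95% interval 10.04 to 27.9), and 1 (1.27%) had a promoter region with CACGTG. The highest were rpl-15 (chrIV:654833-655028, signal 125, ranks 55 and 46), rpl-3 (chrIII:3867512-3867656, signal 103, ranks 90 and 66), rps-12 (chrIII:5678985-5679348, signal 77.3, ranks 229 and 128) and rpl-35 (chrIII:7854516-7854879, signal 65.2, ranks 3162 and 140). The first 3 were high in both replicates, whereas rpl-35 was high in replicate 2 alone. The median over the 14 was 37.7, near the 38.1 of all 230 regions. With the 507 highest regions alone, 6 ribosomal protein genes were counted. Of 39 translation factor genes, 5 had a region (12.8%, 4.30 to 27.4) and 0 had one with CACGTG. The highest of these was iff-2, which encodes the elongation factor eIF5A (chrII:8561335-8561495, signal 98.6, ranks 127 and 85). Signals at the elongation factor genes eef-2, eef-1B.1 and eef-1A.1 were 39.3, 37.7 and 29.9, and replicate 1 listed no region at eef-1B.1 or eef-1A.1. Of 32 aminoacyl-tRNA synthetase genes 0 had a region, with an exact upper limit of 10.9% that lies above the background, and 1 had a promoter region with CACGTG. Over all 17242 autosomal protein-coding genes, 104 had a promoter region with CACGTG, so counts of 0 or 1 in these lists show no scarcity.

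Genes of protein folding, secretion and energy metabolism were also found, by smaller numbers. Among 59 heat shock and chaperone genes there were 5 (8.47%, 2.81 to 18.7). They included cct-1, a subunit of the cytosolic chaperonin, with a signal of 47.9, dnj-13, a DnaJ protein, with 41.9, hsp-60, the mitochondrial chaperonin, with 41.9, and hsp-1, a constitutive Hsp70, with 32.9. The endoplasmic reticulum Hsp90 gene enpl-1, outside that list by its symbol, had a signal of 73.7. For the TCA cycle list it was 4 of 17 genes (23.5%, 6.81 to 49.9). These were cts-1, for citrate synthase, with 41.8, aco-2, for aconitase, with 37.7, dld-1, for dihydrolipoamide dehydrogenase, with 33.5, and the malate dehydrogenase gene mdh-1, with 55.7. Membership rests on the gene symbol, and whether the mdh-1 enzyme acts in the mitochondrial cycle was not examined. Mitochondrial respiration gave 3 of 41 (7.32%), which were cox-5A, cox-5B and atp-3. The respiratory complex I gene nduf-2.2, outside that list by its symbol, shared a region of signal 45.9 with dlc-1. Small GTPases and vesicle traffic gave 8 of 121 (6.61%, 2.90 to 12.6). The last were led by rab-18, a lipid droplet and membrane traffic GTPase, with 68.3, and sec-61.G, a subunit of the translocon, with 52.5. All 3 Sec61 translocon genes of that list, sec-61.A, sec-61.B and sec-61.G, had a region. Replicate 1 listed no region at hsp-60 or aco-2.

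Among lists of regulatory and signalling genes, the long ones were near the background of 1.70%, and shares of the short ones rest on 1 or 2 genes. There were 5 of 247 nuclear hormone receptor genes (2.02%), with signals from 39.3 at nhr-58 downwards, 1 of 66 homeobox genes (1.52%) and 1 of 30 basic helix-loop-helix genes (3.33%). The homeobox gene was ceh-38, of the ONECUT family, with a signal of 76.7, and the helix-loop-helix gene was hlh-11, with 52.6. Of 24 bZIP genes there were 2 (8.33%, 1.03 to 26.997), namely xbp-1, of the unfolded protein response, with 42.6, and jun-1, with 40.7. Of 14 genes of the insulin and TOR pathway there were 2 (14.3%, 1.78 to 42.8), namely daf-16, the FOXO transcription factor, with 42.9, and rheb-1, a GTPase that activates TOR in other animals, with 27.2. The ubiquitin conjugation and ligase list had 7 of 370 (1.89%), led by lin-23 and by ubc-25 with 66.2. Other counts were 2 of 61 for cell cycle and replication, cdc-48.1 and cdk-7. The replication genes sld-2, rfc-4, ctf-4 and pri-2, outside that list by their symbols, also had a region each. Their signals were 30.5, 29.9, 26.6 and 26.4. Replicate 1 listed no region at sld-2, rfc-4 or pri-2, and the region at ctf-4 ranked 5700 there. The regions at rfc-4 and ctf-4 were each shared with an elongation factor gene counted above. At sld-2 the summit lay 907 bp from its 5′ end and 59 bp from that of a neighbouring gene. Histones gave 2 of 78, his-37 and htz-1, the latter a histone H2A.Z gene. There were 2 of 61 for splicing, snr-4 and mog-4, 2 of 28 for autophagy (7.14%, 0.877 to 23.5), lgg-2 and lgg-1, and 2 of 135 for lipid metabolism, acs-2 and cpt-4. Single genes were rpn-11 of 34 proteasome genes, unc-32 of 18 for the vacuolar ATPase and kin-14 of 32 on a list of kinases chosen by symbol. Replicate 1 listed no region at rpn-11, kin-14 or cpt-4, and the region at rheb-1 ranked 3393 there.

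Large gene families of sensing, cuticle and defence were rarely found. Of 1088 chemoreceptor genes, 2 had a region (0.184%, 0.0223 to 0.662), srh-17 with a signal of 53.1 and srh-16 with 26.8. Replicate 1 listed no region at srh-16. None of 145 cuticle collagen genes had one, which allows up to 2.51%, nor did any of 237 C-type lectin genes, up to 1.54%, or of 180 detoxification genes, up to 2.03%. For the 106 neuropeptide genes and the 7 heterochronic genes the count was also 0, with upper limits of 3.42% and 41.0%. The limits for collagens, neuropeptides and detoxification genes lie above 1.70%, so a share equal to the background was not detectable as different there. Promoter regions with CACGTG were also 0 for collagens, neuropeptides, chemoreceptors and C-type lectins, against 104 of all 17242 autosomal protein-coding genes.

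Divergent promoters, where a gene on the minus strand and a gene on the plus strand point away from each other and both windows hold the summit, made up 60 of the 230 regions (26.1%, 20.5 to 32.3). With CACGTG they were 15 of 87 (17.2%, 9.98 to 26.8), and the difference did not pass the test (2-sided Fisher's exact test, p = 0.105, adjusted p = 0.176). For scale, 10.7% of all autosomal promoter window bases lay in 2 divergent windows at once. They fell in 59 distinct pairs, since ecps-1 and atx-2 shared 2 regions. The median distance between the 5′ ends was 541 bp over these pairs, and the range was 126 to 1771 bp. In 54 of the 60 regions the summit lay between the 5′ ends, with a median of 146 bp to the closer of them, and in 7 regions it was within 200 bp of both. Signal at divergent regions, with a median of 38.2, was like that at the 170 others, with 38.1.

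The strongest divergent regions differed in how evenly the summit divided the pair. At K01G5.10 and tasp-1, with 5′ ends 785 bp apart, it lay 30 bp from tasp-1 and 755 bp from the partner. Likewise at iff-2 and F54C9.14, 935 bp apart, it lay 26 bp from iff-2, and at imp-2, for an intramembrane protease, and enpl-1, 411 bp apart, it lay 22 bp from enpl-1. The summit was more central between nhl-2, a TRIM-NHL protein gene of the microRNA pathway, and tag-340 (chrIII:4899814-4900036, signal 154), at 840 and 583 bp. It was central too between rpl-15 and K11H12.8, at 349 and 465 bp, and between ska-3, a kinetochore protein gene, and rps-12, at 162 and 131 bp. The tightest pair, rab-18 and the kinetochore gene kbp-4, had 5′ ends 126 bp apart, and its summit lay 17 bp inside rab-18. That region was also in the window of the polarity gene par-2. At malt-1, a paracaspase gene, and ceh-38, the summit lay 24 bp inside ceh-38.

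Further pairs among the 20 highest joined genes of different roles. The gene of Enhancer of Polycomb, epc-1, faced Y111B2A.12 with a signal of 67.2, and mdh-1 faced F46E10.3 with 55.7 across the widest gap, 1771 bp. Next came ecps-1, a proteasome adaptor gene, with atx-2, the ataxin 2 gene, with 54.8. The pair icd-1, a subunit of the nascent chain complex, and vps-32.1, of the ESCRT-III complex, had 48.6. The pair mig-5, a Dishevelled gene, and cct-1 had 47.9. The translation regulator gene larp-1 with wip-1, of the WASP pathway, had 47.5, and dlc-1, a dynein light chain, with nduf-2.2, of respiratory complex I, had 45.9. The lowest of the 20, sbt-1 with num-1, the Numb gene, had 44.3, but ranked 14330 in replicate 1 against 342 in replicate 2. The other pairs were F38B7.17 with F38B7.3, C06B3.6 with C06B3.7, a pair on the clone Y105C5A, and Y77E11A.7 with jtr-1. Their signals lay between 45.8 and 57.7.

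**Figure D3:**
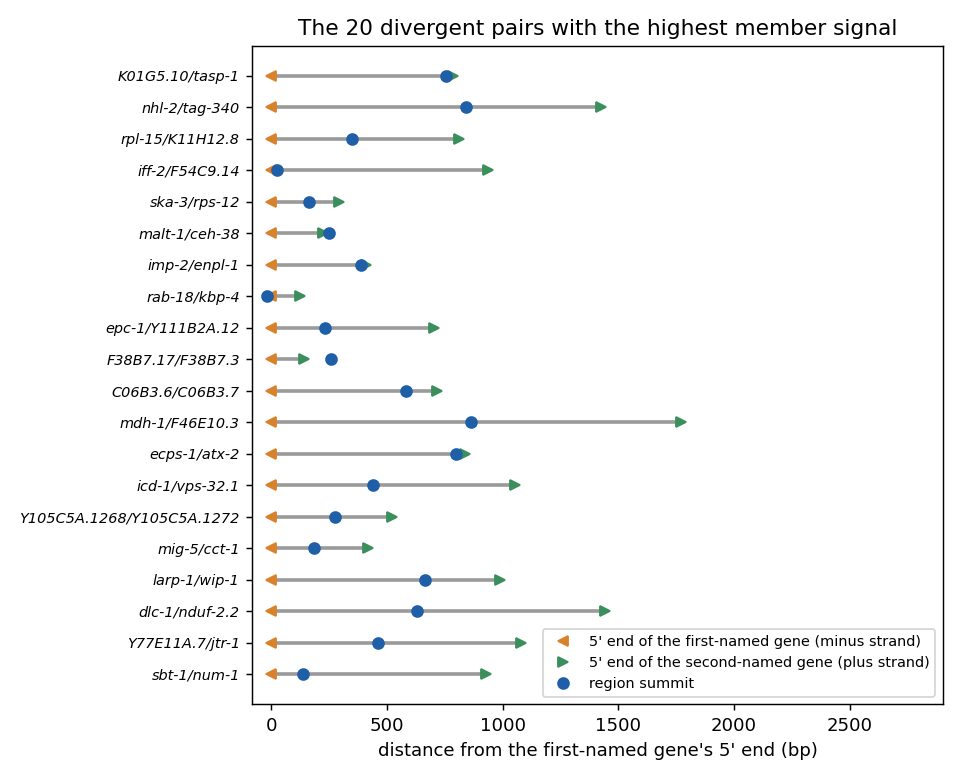
The 20 divergent pairs of highest signal, one line per pair, with distance from the 5′ end of the minus-strand gene in bp on the x axis. Triangles are the annotated 5′ ends and blue points the region summits, which range from beside 1 gene (26 bp from iff-2) to midway (162 and 131 bp at ska-3 and rps-12).

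Of the translation genes with a region, most stood in divergent pairs, and this was also common among translation genes in general. Among the 14 ribosomal protein genes, 11 were in a divergent pair, and all 5 translation factor genes were, as were 4 of the 5 chaperone genes, a reading added after the values were seen. For comparison, a head-to-head neighbour whose window overlaps the gene's own was present for 42 of the 65 other ribosomal protein genes (64.6%) for 18 of the 34 other translation factor genes (52.9%) and for 30 of the 54 other chaperone genes (55.6%). Over all autosomal protein-coding genes it was 5197 of 17242 (30.1%), and for genes with a region 148 of 293 (50.5%). One summit served eef-1B.1 and aco-2 together, and another sec-61.A and rps-18.

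The GA repeat was the commonest element of the search. GAGAGA was present within 100 bp of the summit in 128 of the 230 regions (55.7%, 48.98 to 62.2). In windows of the same length centred 500 bp upstream of the summit it was present in 13.3% of 226, and 500 bp downstream in 8.41% of 226. Of 201 bp windows centred 249 bp upstream of the 5′ end of all 17242 autosomal protein-coding genes, 12.4% had it. Among all 6-base words, GAGAGA also had the greatest excess over the flanks, followed by AGAGAC, in 43.04% of summit windows against 7.08% of flanks and 8.45% of all promoters. The flanks of 4 regions were not used.

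CTGCGTC was less common and was mostly followed by TC. It occurred in 54 regions (23.5%, 18.2 to 29.5), against 1.33% and 0.442% of the flanks and 2.82% of all promoters. The 60 occurrences had a median distance of 35 bp from the summit, with 42 within 50 bp. Of these 60, 50 (83.3%) were followed by TC, against 321 of 499 occurrences (64.3%) in all promoter windows, so that CTGCGTCTC was present in 46 regions (20%) and 1.80% of all promoters. The base before the element was T in 71.7%, and the third base after it was also most often T, in 61.7%. Relative to the nearest gene, 37 copies were on the same strand and 23 on the opposite one. CGTCTC, which overlaps the longer element, was present in 42.2% of regions and 6.34% of all promoters. GAGAGA and CTGCGTC occurred together in 40 regions (17.4%) and at least one of them in 142 (61.7%), against 1.03% and 14.2% of all promoters. The same shares were 25.7% and 74.7% in regions outside promoters without CACGTG, and 16.1% and 58.6% in promoter regions with it.

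Counted as any of 9 forms, the E-box with a single changed base was also more frequent at the summits than beside them, though not every form was. CACGAG was present in 62 regions (26.96%, 21.3 to 33.2), against 4.42% and 7.08% of the flanks and 4.66% of all promoters. CACGCG was present in 42 (18.3%, 13.5 to 23.9), against 3.54% of each flank and 3.16% of all promoters, and CACATG in 13.9% against 6.37% of all promoters. Among all 6-base words, the excess over the flanks ranked 15 for CACGAG, 37 for CACGCG and 122 for CACATG. The word ACGCAG, of the same base composition as CACGAG, ranked 5, in 33.5% of summit windows against 3.32% of flanks. At least one of the 9 forms was present in 170 regions (73.9%, 67.7 to 79.5), against 35.4% and 35.8% of flanks and 36.0% of all promoters. Other forms went the other way: CACGTA was present in 3.48% against 4.42% and 3.98% of flanks and 4.14% of all promoters, and CACCTG in 3.04% against 4.87% of each flank. The canonical CACGTG, absent here by choice, was in 3.08% of all promoters. Overlap with the repeat was counted for 2 forms: 4 of 69 occurrences of CACGAG and 2 of 53 of CACGCG shared bases with a GAGAGA. Overlap with other GA-rich words was not counted. In 23 regions (10%) neither GAGAGA nor CTGCGTC nor a 1-base form was present, against 55.5% of all promoters. The regions outside promoters without CACGTG had at least one form in 72.6% and none of these elements in 7.88%. Promoter regions with CACGTG had 56.3% and 20.7%. Outside promoters CACGAG was present in 18.8%, CACGCG in 16.8% and CACATG in 21.2%.

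**Figure D4:**
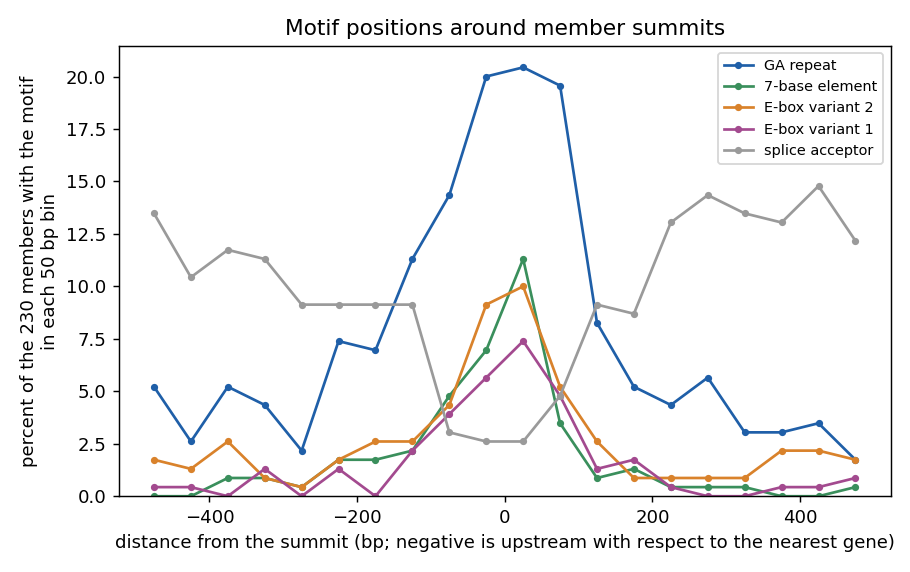
Percent of the 230 regions with each motif (y axis) in bins of 50 bp by distance from the summit (x axis, negative upstream). The GA repeat (GAGAGA), the 7-base element (CTGCGTC) and E-box variants 1 (CACGCG) and 2 (CACGAG) peak at the summit, and the splice acceptor motif (TTTCAG) is lowest there.

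Base composition moved with these shares, and its part in them was not tested. Median GC content was 45.3% in the summit windows, 35.1% and 36.3% in the upstream and downstream flanks and 33.8% in all promoter windows. Several words were less frequent at the summits than in all promoters. TTTCAG, a splice acceptor consensus, was present in 12.2% against 33.6%, TATAAA in 11.3% against 24.3%, TTTTTTTT in 11.3% against 23.7% and the homeodomain motif TAATTA in 4.35% against 11.6%. The GATA motif TGATAA was present in 12.2% against 20.02%, the longer CTTATCA in 2.61% against 4.63%, the heat shock motif GAANNTTC in 6.96% against 14.2% and CCAAT in 27.8% against 34.2%. Other motifs were more frequent at summits: GGCGGG, of Sp1 and KLF factors, in 10.4% against 3.83%, ATCGAT in 14.8% against 7.49% and the bZIP motif TGACGT in 10% against 6.38%. The remaining searched motifs were CAGCTG in 5.22% against 3.54%, CACCTG in 3.04% against 4.54%, CATATG in 3.04% against 3.62%, GTAAACA in 3.48% against 3.05%, GCGGGAA in 3.91% against 2.50% and AGGTCA in 6.52% against 5.11%.

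Of the 24 motifs, 0 (0.00%) differed in share between the 230 regions and the promoter regions with CACGTG after correction (2-sided Fisher's exact tests, Benjamini-Hochberg over 48 tests), with 2 at an unadjusted p under 0.05. This count depended on the windows. With promoters of 2000 bp upstream, CACGCG and TGATAA (Fisher's exact test, adjusted p = 0.0131) and CTTATCA (adjusted p = 0.0156) passed, and with a CACGTG limit of 50 bp TGATAA did (adjusted p = 0.0403). In the main setting the smallest adjusted p was 0.0823, shared by TGATAA, in 12.2% against 25.3%, and CTTATCA, in 2.61% against 10.3%. CTGCGTC was present in 23.5% and 22.99% of the regions and GAGAGA in 55.7% and 51.7%, whose difference of 3.93 percentage points had an adjusted p of 0.841. CACGAG, in 26.96% against 16.1%, and CACGCG, in 18.3% against 9.20%, each had an adjusted p of 0.304.

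Against autosomal regions outside promoters without CACGTG, 2 of the 24 motifs (8.33%) differed, with 5 at an unadjusted p under 0.05. GAGAGA was less frequent in the promoter regions, at 55.7% against 69.5%, and ATCGAT more frequent, at 14.8% against 6.16% (2-sided Fisher's exact test, adjusted p = 0.0422 for each). Neither call held when regions were ranked by a single replicate. Without replicate 1 the adjusted p was 0.184 for GAGAGA and 0.367 for ATCGAT, and without replicate 2 it was 0.437 for both. CTGCGTC was present in 30.8% of the regions outside promoters, with an adjusted p of 0.330.

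**Figure D5:**
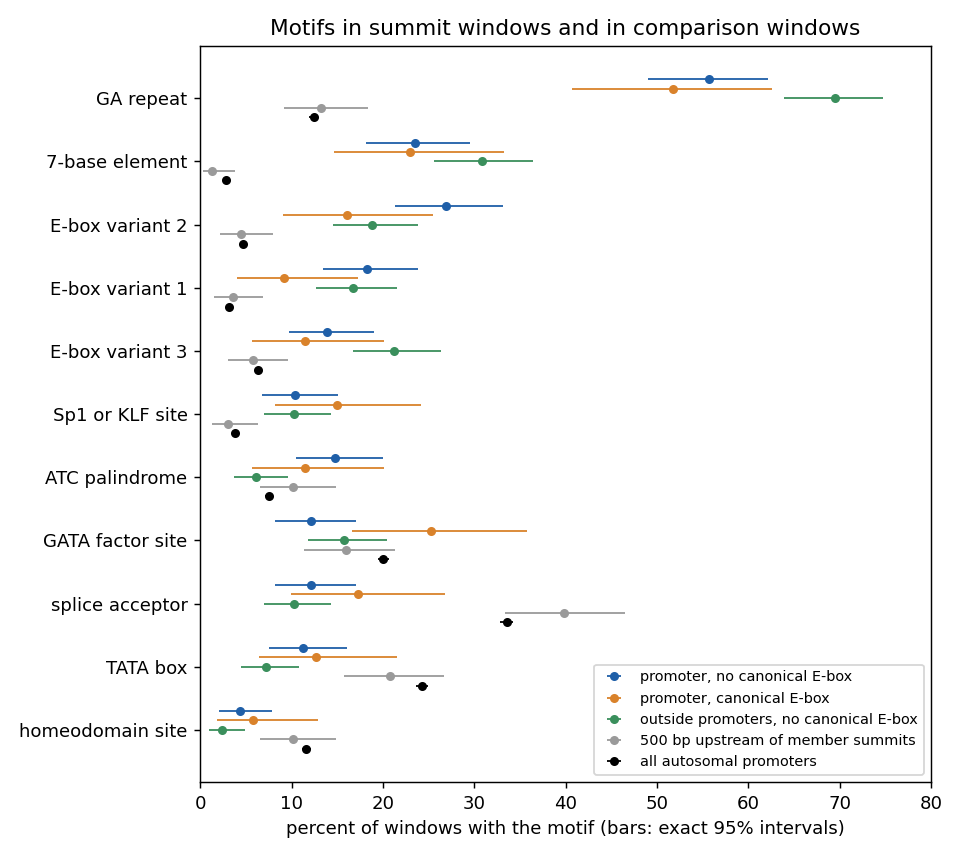
Percent of windows of 201 bp with each motif (x axis) for the 230 regions (blue), promoter regions with the canonical E-box (orange), regions outside promoters without it (green), upstream flanks (grey) and all autosomal promoters (black), with exact 95% intervals. For the GA repeat, the 3 bound classes lie at 55.7%, 51.7% and 69.5%, and flanks and all promoters at 13.3% and 12.4%.

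All 4 motif shares were somewhat higher in the 115 regions of higher signal, though GAGAGA was not more frequent in the 20 highest. Between the 115 regions of higher and the 115 of lower signal, GAGAGA was present in 60% and 51.3%, CTGCGTC in 26.1% and 20.9%, CACGAG in 30.4% and 23.5% and CACGCG in 20% and 16.5%. In the 20 highest, 9 had GAGAGA, a lower share than in either set of 115, and 6 had CTGCGTC, 7 CACGCG and 7 CACGAG. No test of these differences was run.

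GAGAGA and CTGCGTC were less frequent at ribosomal protein promoters than at the others, and some other words more so. Of the 14 regions, 3 had GAGAGA (21.4%, against 57.9% of the other 216), 0 had CTGCGTC (against 25%), 4 had CACGCG (28.6%, against 17.6%) and 3 had CACGAG (21.4%, against 27.3%). The shorter word TGCGTC, which is part of CTGCGTC, was not less frequent there. It was present in 6 of the 14 (42.9%), 31.9% of the other 216 and 5.74% of all promoters. The word TACGGT, seen in the rpl-15 sequence, was present in 8 of the 14 (57.1%), in 7.87% of the other 216, in 23.1% of the promoter windows of the 65 other ribosomal protein genes and in 6.51% of all promoters. TAGGCC was present in 5 of the 14 (35.7%), in 2.31% of the other regions and in 26.2% of the other ribosomal protein promoters, against 3.60% of all promoters. GGAGCG was present in 7 of the 14 (50%), 13.9% of the other regions and 7.69% of the other ribosomal protein promoters, against 3.75% of all promoters. These words were chosen after the values were seen, and no test was run on them.

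The limit of 100 bp set which regions were counted. A CACGTG began within 150 bp of the summit in 6 of the 230, at F47D12.9 (101 bp), enpl-1 (102 bp), ZK1290.5 (103 bp), F02E9.5 (107 bp), cbp-1 (131 bp) and atx-2 (147 bp), and within 500 bp in 31. For 116 there was none within 2000 bp. In the 87 regions with CACGTG its median distance from the summit was 26 bp, and in 4 it was 76 bp or more. At the edges of the promoter window, 8 of the 230 summits were 900 to 1000 bp upstream and 3 were 150 to 200 bp downstream. Just outside, 8 autosomal regions without CACGTG had a median signal of 47.9.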

How the data were processed

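The authors deposited lists of called regions for 2 replicates and for their pool. The list used here is the reproducible one, thresholded by irreproducible discovery rate, in ce11. Its signal column, as deposited by the authors, was treated as a score, and the summit column gave the summit offset. The sources used here do not give the caller, its thresholds or the read depth. Intervals therefore cover counting error alone. The reproducible list equals the 1015 highest pooled regions.

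Genes came from Ensembl release 115 and sequence from RefSeq, both of WBcel235, which is ce11. Coordinates are 1-based. Motifs were searched on both strands in windows of 201 bp. Shares have exact Clopper-Pearson intervals at 95%, and region classes were compared with 2-sided Fisher's exact tests, adjusted by Benjamini-Hochberg, with a threshold of 0.05. The test code was checked on simulated data. A reproducible region counted as listed by a replicate when a region of that replicate held its summit. Calculations used Python 3.11.15, numpy 2.4.6, pandas 2.3.3 and scipy 1.17.1, with matplotlib 3.10.9 for figures.

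Genes were named when their window held 1 of the 20 summits of highest signal, when they formed 1 of the 20 highest divergent pairs, or when they were among the 4 highest of a list. F47D12.9, ZK1290.5, C18F10.7, Y54G11A.2, sec-61.A, sec-61.B, par-2, sld-2, rfc-4, ctf-4 and pri-2 were chosen once values had been seen. The regions, 27 gene lists and 24 motifs were chosen with earlier results of these data known. Lists were matched by gene symbol, and the chemoreceptor pattern was corrected because it also matched a gene of another kind. A few items are not reported here. Alternatives changed the windows, the list, the 5′ ends and the replicates.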

Additional observations from a re-analysis of the deposited data

How the results depend on the processing

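Of 194 alternative values, 151 kept their direction and side of the threshold or stayed close to the main value, 18 moved, 13 lost and 5 gained a call, and 7 turned direction, none of them past the threshold. For counts, close was a wide range. It took in 177 regions and 216 genes with promoters of 500 bp, and 297 regions and 421 genes with 2000 bp, against 230 and 293. The 230 regions went from a higher to a lower share than regions outside promoters among the 507 highest, with 39.0% (500 bp promoters) and 43.8% (2000 bp), and among the highest of both replicates, with 47.5% (500 bp). Against promoter regions with CACGTG, the difference for ATCGAT was 3.29 percentage points, but -0.229 with a CACGTG limit of 50 bp and -3.06 with the 507 highest regions, and that for GAGAGA was -1.40 to 9.58 when a replicate was left out. Against regions outside promoters, that for TGATAA was then -2.99 to 0.444. With the 507 highest regions alone, 103 regions and 133 genes were left, which follows from the shorter list. The count of motifs that differed between classes, 2 in the main setting, was 3 with a CACGTG limit of 50 bp, 0 with one of 150 bp, with 5′ ends of all transcripts or with the 507 highest regions, 1 with promoters of 500 bp or motif windows of 50 bp, 4 with promoters of 2000 bp (3 of them against promoter regions with CACGTG, where the main count was 0), and 0 without either replicate. The share of regions among the 507 highest was 39.0% with promoters of 500 bp (Fisher's exact test against promoter regions with CACGTG, adjusted p = 0.0203) and 43.8% with 2000 bp (adjusted p = 0.0344). Motif windows of 50 bp, shorter by construction, gave GAGAGA in 36.1%, CTGCGTC in 17.8%, CACGCG in 10.9% and CACGAG in 17.8% of regions. Leaving out a replicate gave GAGAGA in 47.1% to 57.1% and CACGAG in 18.8% to 24.7% of regions. GAGAGA exceeded the downstream flank by 47.2 percentage points and the upstream flank by 42.4. Apart from the shorter list and windows, the cause of these changes was not tested. No paired analysis was possible because all samples belong to 1 group. With 2 libraries and no read depth, differences between classes rest on counts of regions alone.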
